A study of Mus musculus with 76 samples.

Results

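Single macrophages of the mouse atrioventricular node, the small tissue that passes the heartbeat on to the ventricles, were compared by their level of Ighm, the gene of the immunoglobulin M heavy chain. The cells were selected on measured Ighm values. Of 75 cells, 44 held 100 CPM (reads per 1000000 reads counted in that cell) or more and are called Ighm-high, and 24 held less than 10 CPM and are called Ighm-low. The other 7 cells lay between these limits and entered no comparison. All 75 cells came from wild-type C57BL/6J mice with no treatment given in the labels. They were sorted from dissected node tissue for CD45, CD11b and F4/80, low to intermediate Ly6C, and low lineage markers, among them B220 of B cells. The 75 cells stand for 76 libraries, because transcriptomes 13 and 19 matched almost gene for gene and were counted as 1 cell by their mean. Since no label ties a cell to an animal, a chip or a batch, all cells are 1 sample. Every difference below describes these cells, with no test. The spread is the SD over cells, and an exact Clopper-Pearson 95% interval beside a share covers the sampling of cells only.

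IgM is the first antibody class that a developing B cell makes. Its heavy chain is either held in the membrane, where it forms the B cell receptor with the signalling partners Cd79a and Cd79b, or secreted. In B cells the heavy chain locus is opened and transcribed under factors such as Ebf1, Pax5 and E proteins, and Id proteins block the E proteins. Macrophages are best known for taking up antibody through Fc receptors rather than for making it. The gate used here was meant to remove B cells, which is why the other genes of the B cell programme were set beside Ighm.

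The membrane and the secreted heavy chain share most of their coding sequence and differ at its end, and 1 value per gene does not separate them. In the GENCODE annotation of the GRCm38 assembly, Ighm lies on the minus strand of chromosome 12. The annotated entry of the membrane form, Ighm-202, has 1430 coding bases and that of the secreted form, Ighm-201, has 1367, of which 1305 are shared. Neither length is a whole number of codons, so these entries are not the complete reading frame of a heavy chain. The ends are shown because they mark what the measured Ighm level leaves unresolved. The last 20 shared bases are in lower case, and the bases found in 1 form only, through the stop codon, are in capitals, read 5′ to 3′.
Ighm-202: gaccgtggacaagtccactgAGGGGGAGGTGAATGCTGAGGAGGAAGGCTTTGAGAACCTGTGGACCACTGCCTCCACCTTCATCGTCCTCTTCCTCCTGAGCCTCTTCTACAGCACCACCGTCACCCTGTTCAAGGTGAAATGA
Ighm-201: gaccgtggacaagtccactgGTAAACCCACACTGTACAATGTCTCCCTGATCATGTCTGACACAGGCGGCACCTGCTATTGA
The capitals span 125 bases in the membrane form and 62 bases in the secreted form. The deposited Ighm value may hold reads of either form.

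Ighm ran from 119.9 CPM through a median of 1083.9 to 5677.1 CPM in the 44 Ighm-high cells. In the 24 Ighm-low cells it ran from 0 through 0.5 to 7.4 CPM. These values chose the cells and are given as a description. Of the Ighm-high cells 22 held 1000 CPM or more and 22 less, and the values just inside their limit were 119.9 and 124.4 CPM. The 7 cells between held 33.2 to 64.2 CPM, and the 2 highest Ighm-low cells held 3.7 and 7.4 CPM. No cell lay between 7.4 and 33.2 CPM, a 4.49-fold gap. Among the Ighm-low cells 6 were at 0 and 18 were above 0, and in 11 of these 18 the value was equal to about 1 estimated read.

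Among the genes above 0 in its own cell, Ighm stood at a median percentile of 93.1 in Ighm-high cells, with a range of 70.3 to 99.4. In the 18 Ighm-low cells above 0 the median percentile was 24.2, with a range of 15.0 to 36.9. The low-to-middle stretch from 10 to 100 CPM held 9.33% of cells for Ighm. Over the 1305 genes above 0 in 50 or more cells that share had a median of 17.3% and quartiles of 12% and 24%. Values above 0 but below 10 CPM were found for Ighm in 24% of cells, as for the median of those genes. All of these Ighm shares and percentiles use the values and limits that chose the cells, and they describe the split without supporting it.

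**Figure D1:**
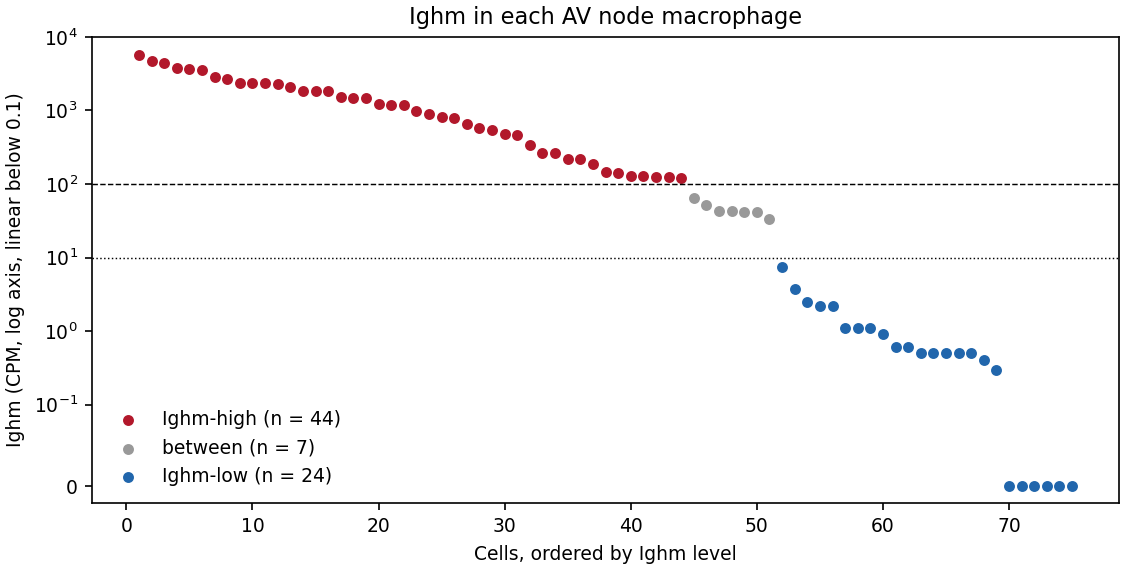
Ighm in each cell, in CPM on an axis that is logarithmic above its low end, with the 75 cells ordered along the other axis by their Ighm level; each point is 1 cell, coloured by class, and the lines mark 100 and 10 CPM. The 44 Ighm-high cells spread from 119.9 to 5677.1 CPM, the 24 Ighm-low cells from 0 to 7.4 CPM, and no cell lies between 7.4 and 33.2 CPM.

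Depth and detection differed between the classes by less than the spread between cells. Estimated reads ran from 259557 through 2330304 to 6293310 in Ighm-high cells, and from 269282 through 1930123 to 5042829 in Ighm-low cells. Genes above 0 averaged 3290 ± 494 in Ighm-high cells and 3130 ± 551 in Ighm-low cells (SD, n = 44 and 24). Over the 75 cells Ighm had a Spearman rho of -0.01 with the genes above 0 and 0.05 with the estimated reads, given without a p because the cells share their source. Both classes held the macrophage markers: Csf1r, the receptor that macrophages depend on for survival, was at 10 CPM or more in 43 of 44 Ighm-high cells and 23 of 24 Ighm-low cells.

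Of the signalling partners of IgM in the B cell receptor complex, Cd79b had values, in few cells. It was above 0 in 3 Ighm-high cells, at 2.4, 17.2 and 19.9 CPM. In Ighm-low cells it was above 0 in 2, at 523.7 and 1350.7 CPM, in cells whose Ighm was 0.5 and 1.1 CPM. Its highest values thus lay in cells with almost no Ighm. It reached 10 CPM in 2 of 44 Ighm-high cells (4.55%, 0.555 to 15.5) and 2 of 24 Ighm-low cells (8.33%, 1.03 to 27.0). With only 6 cells above 0 in all, Cd79b fell below the detection filter of the gene comparison and no fold was formed for it.

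Ebf1, the transcription factor that starts the B cell programme, was above 0 in 10 Ighm-high cells, at 0.3 to 1.1 CPM. It was above 0 in 8 Ighm-low cells, at 0.3 to 2.6 CPM. It reached 10 CPM in 0 of 44 Ighm-high cells and in 0 of 24 Ighm-low cells. By an approximate limit of 3 over the number of cells, these allow shares of up to 6.82% and 12.5%. This limit is not the exact interval given beside other shares. At these levels, near those of single reads, no difference between the classes was detectable. Cd79a, Ms4a1 and Pax5, genes often used to recognise a B cell, were not analysed here.

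Genes were compared by a rule of size that takes a fold and a share of cells together. The fold is the mean CPM of the Ighm-high cells plus 10, over the mean CPM of the Ighm-low cells plus 10. Adding 10 CPM understates the change of low genes, and every log2 fold below is on this scale. A gene is past the rule where the fold is 2 or more, or the inverse, and the share of cells at 10 CPM or more differs by 20 percentage points or more in the same direction. Of 8350 genes above 0 in at least 8 cells, 101 (1.21%) were higher and 58 (0.695%) lower in Ighm-high cells, 159 (1.9%) in all. By the fold alone, 21.8% of genes were higher and 15.7% lower. The median log2 fold over all genes compared was 0.03, with quartiles of -0.56 and 0.84.

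**Figure D2:**
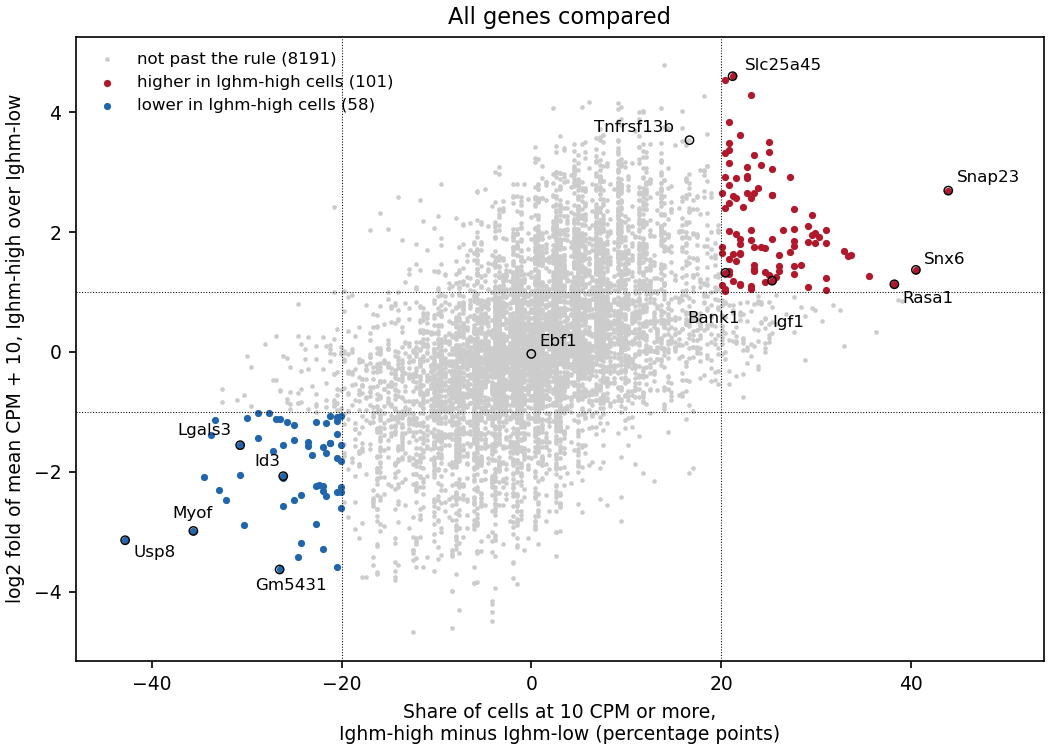
Each of the 8350 genes compared, by the difference in the share of cells at 10 CPM or more (Ighm-high minus Ighm-low, in percentage points) and the log2 fold of mean CPM plus 10 (Ighm-high over Ighm-low); dotted lines mark the limits of the rule. The 101 genes higher in Ighm-high cells lie at the upper right and the 58 lower genes at the lower left, Snap23 and Usp8 lie farthest out along the share axis, and Ebf1 lies near the centre.

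Of 34 B cell defining genes, 8 had values and 7 could be compared, and 1 of these, Bank1, was past the rule, against 1.9% of all genes. With so few genes the count says little about the list. Bank1, an adaptor in B cell receptor signalling, ran from 0 through 1.55 to 2604 CPM in Ighm-high cells and from 0 through 0.3 to 1607.1 CPM in Ighm-low cells. The classes overlapped over most of their range. Bank1 reached 10 CPM in 20 of 44 Ighm-high cells (45.5%, 30.4 to 61.2) and 6 of 24 Ighm-low cells (25.0%, 9.77 to 46.7), a log2 fold of 1.32. Its mean was 267.8 ± 537.4 CPM in Ighm-high cells and 101.2 ± 332.8 CPM in Ighm-low cells. The share differed by little more than the 20 points the rule asks for.

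Tnfrsf13b, a receptor for B cell survival factors also known as TACI, ran from 0 through 0 to 2175.9 CPM in Ighm-high cells and from 0 through 0 to 28.2 CPM in Ighm-low cells. It reached 10 CPM in 11 of 44 Ighm-high cells and 2 of 24 Ighm-low cells, and its log2 fold was 3.53. It missed the rule on the share, which differed by 16.7 points. The library chemistry keeps no strand, so reads of overlapping genes could not be told apart. In RefSeq the span of Tnfrsf13b overlaps Usp22, and further on that of Cd72 overlaps Tesk1. P2ry13 lies with Med12l, Ubac2 with Gpr183 and Fibp with Ctsw. The span of Ighm itself overlaps the entry Igh. Other genes named in this report also overlap an annotated gene, among them Bach2, Txndc5, Cdc123, Usp8, Myof, Ptk2b, Mgrn1 and Trerf1. Bach2, a repressor that holds back plasma cell development, reached 10 CPM in 3 Ighm-high cells and 1 Ighm-low cell, and its highest value of 2398 CPM was in a single Ighm-high cell. Cd72, an inhibitory B cell coreceptor, had a log2 fold of 0.15. H2-Ob, which tunes peptide loading of MHC class II in B cells, had -1.21, and Ralgps2, a Ral exchange factor, had -0.77.

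Taken per cell, 33 of 44 Ighm-high cells and 12 of 24 Ighm-low cells held at least 1 of the 8 B cell genes at 10 CPM or more. In Ighm-high cells 11 held none, 16 held 1, 14 held 2 and 3 held 3 of them. In Ighm-low cells 12 held none, 6 held 1, 4 held 2 and 2 held 3. Their summed level had a median of 329.6 CPM in Ighm-high cells, with a range of 0.2 to 4844.6 CPM. In Ighm-low cells the median was 23.9 CPM and the range 0.5 to 4749.2 CPM. No cell of either class held more than 3 of the 8 genes at 10 CPM or more. These counts include Bank1 and Tnfrsf13b, described above, so they are no separate result. Of the 7 genes compared 4 had a fold above 1 and 3 below it, and their median log2 fold was 0.15, beside 0.03 over all genes. The part of the 8 B cell genes in the other differences was not tested. Counts without the cells that hold them are given in the closing part.

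**Figure D3:**
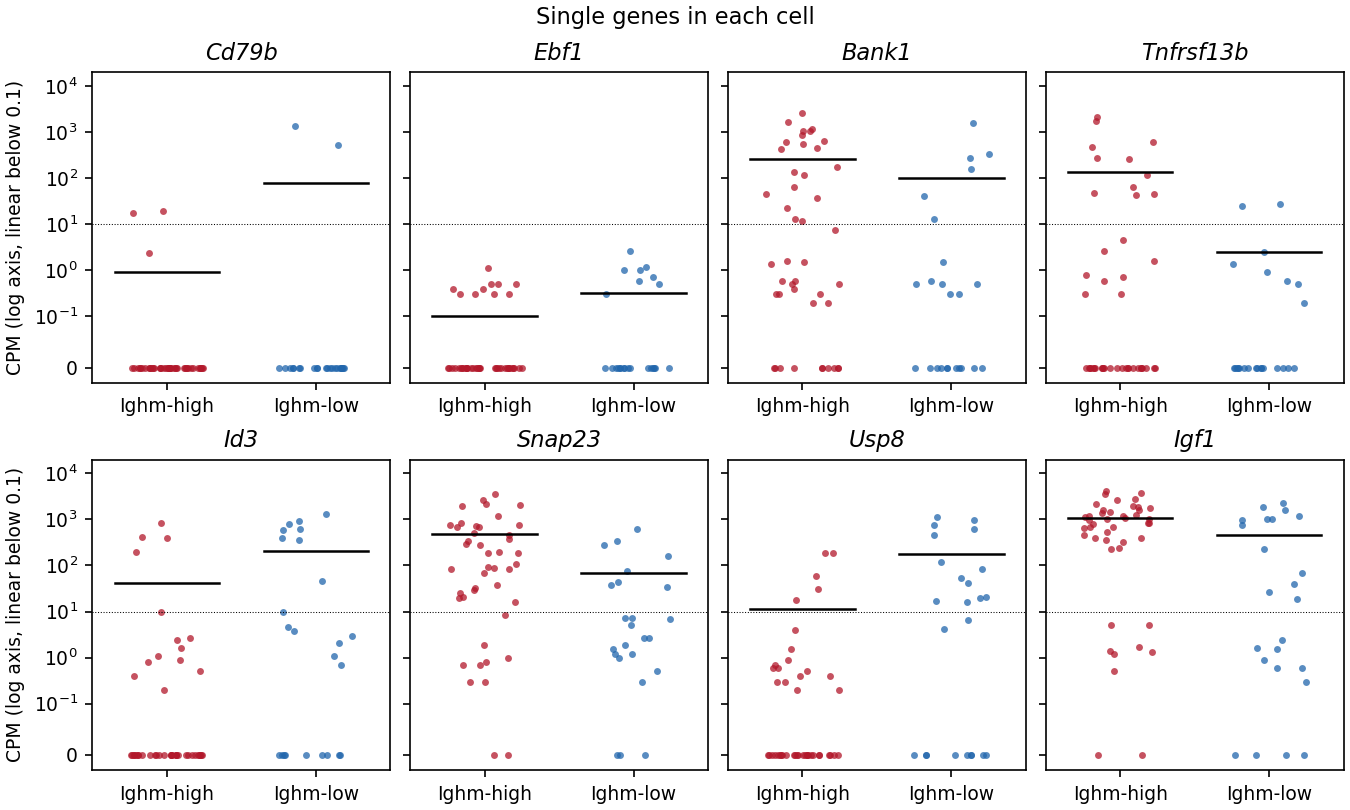
CPM in each cell, on an axis that is logarithmic above its low end, for single genes in Ighm-high cells (left) and Ighm-low cells (right); each point is 1 cell, the bar is the mean of the class and the dotted line marks 10 CPM. The classes overlap in every gene shown, and the 2 highest Cd79b values, 523.7 and 1350.7 CPM, are in Ighm-low cells.

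Of 18 regulators of the heavy chain locus compared, 1 was past the rule, where 1.9% of all genes were, so the count says little about the list. Id3, an inhibitor of E proteins, ran from 0 through 0 to 842.6 CPM in Ighm-high cells and from 0 through 2.55 to 1319.3 CPM in Ighm-low cells. It reached 10 CPM in 5 of 44 Ighm-high cells (11.4%, 3.79 to 24.6) and 9 of 24 Ighm-low cells (37.5%, 18.8 to 59.4), a log2 fold of -2.07. In the cells with as many or more genes detected than the median the log2 fold of Id3 was 0.45, so its direction depended on which cells were taken. Id2, a related inhibitor, had a log2 fold of -0.67 and was not past the rule. Irf4, a factor of plasma cell development, averaged 277.6 ± 804.2 CPM in Ighm-high cells and 5.99 ± 14.1 CPM in Ighm-low cells, but reached 10 CPM in 10 of 44 Ighm-high cells and 4 of 24 Ighm-low cells, which is not past the rule. The median log2 fold of the 18 regulators was -0.06, beside 0.03 over all genes.

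Of 19 plasma cell and secretion genes compared, 8 had a fold above 1 and 11 below it, and the median log2 fold was -0.15. None was past the rule, a count near the 1.9% of all genes. Their summed level had a median of 4895 CPM in Ighm-high cells and 5323 CPM in Ighm-low cells. Xbp1, the factor that expands the secretory apparatus, was at 10 CPM or more in 13 of 44 Ighm-high cells and 6 of 24 Ighm-low cells. Hspa5, the chaperone that binds unassembled heavy chains, averaged 1912 ± 2050 CPM in Ighm-high cells and 2123 ± 3011 CPM in Ighm-low cells. Txndc5, a disulphide isomerase of the endoplasmic reticulum that is not in this list, was past the rule as lower: it reached 10 CPM in 1 of 44 Ighm-high cells and 6 of 24 Ighm-low cells, with a log2 fold of -2.87.

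The signalling genes that B cell receptors share with macrophages had a median log2 fold of 0.35, with 0 of 21 past the rule against 1.9% of all genes, 14 folds above 1 and 7 below. Syk, the kinase that carries both B cell receptor and Fc receptor signals, averaged 419.6 ± 640.7 CPM in Ighm-high cells and 471.5 ± 1043 CPM in Ighm-low cells. Btk and Lyn, kinases of the same route, had log2 folds of 0.38 and 0.89.

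Receptors that bind antibody were present in both classes, and 0 of 10 were past the rule, near the 1.9% of all genes. Fcgr3, a low-affinity activating IgG receptor, averaged 1932 ± 1484 CPM in Ighm-high cells and 2228 ± 2030 CPM in Ighm-low cells, and was at 10 CPM or more in all 68. Fcer1g, the signalling chain that activating Fc receptors share, averaged 1848 ± 925.7 CPM in Ighm-high cells and 1813 ± 1220 CPM in Ighm-low cells. Fcgr2b, the inhibitory receptor, had a log2 fold of 0.30, and Fcgrt, which recycles IgG, had 0.11. Fcgr4 reached 10 CPM in 7 of 44 Ighm-high cells and 1 of 24 Ighm-low cells, with a log2 fold of 1.34 that missed the rule on the share.

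The antibody lists hold few of the 8350 genes compared, so most genes past the rule belonged to none of them. The genes higher in Ighm-high cells were at 10 CPM or more in a median of 22 cells, the lower genes in 16, and all genes compared in 9. The rule asks for 20 points of share, so genes found in few cells could not pass it. The classes also differ in size, with 44 and 24 cells, so these medians are no trait of the genes. The largest folds were those of sparse genes. Slc25a45, a mitochondrial carrier, averaged 280.4 ± 778.5 CPM in Ighm-high cells and 1.96 ± 5.61 CPM in Ighm-low cells, a log2 fold of 4.60, yet it reached 10 CPM in only 13 of 44 Ighm-high cells and 2 of 24 Ighm-low cells. Ube3b, a ubiquitin ligase, reached 10 CPM in 9 of 44 Ighm-high cells and 0 of 24 Ighm-low cells, with a log2 fold of 4.54. Zhx1, a zinc finger and homeobox factor, had a log2 fold of 4.29 and P2ry13, a receptor for ADP, had 3.84. The next were Tex261 at 3.63, Ubac2 at 3.50, Cdan1 at 3.48, Arl11 at 3.38, Fibp at 3.34, Dscr3 at 3.32, Hp1bp3 at 3.29 and Zfp191 at 3.16.

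A smaller group was higher in Ighm-high cells and also widely detected: 17 genes were at 10 CPM or more in at least 34 of the 68 cells. This group was singled out after the values were seen. Snap23, a SNARE protein of membrane fusion and exocytosis, ran from 0 through 101.35 to 3650.2 CPM in Ighm-high cells and from 0 through 3.8 to 615.1 CPM in Ighm-low cells. It reached 10 CPM in 34 of 44 Ighm-high cells (77.3%, 62.2 to 88.5) and 8 of 24 Ighm-low cells (33.3%, 15.6 to 55.3), a log2 fold of 2.69. Snx6, a sorting nexin of endosome recycling, reached 10 CPM in 38 of 44 Ighm-high cells and 11 of 24 Ighm-low cells, with a log2 fold of 1.37. Medians for both genes lay below 10 CPM in Ighm-low cells and above 100 CPM in Ighm-high cells, although the full ranges overlapped.

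Immune genes of this group were H2-T23, Ms4a7, Ms4a6b, Gpr183 and Igf1. H2-T23, the non-classical MHC class I molecule Qa-1, averaged 582.1 ± 754.7 CPM in Ighm-high cells and 163.2 ± 293.0 CPM in Ighm-low cells, a log2 fold of 1.77. Ms4a7 and Ms4a6b, membrane proteins of the MS4A family found in macrophages, had log2 folds of 1.28 and 1.60. H2-T23 and Ms4a6b belong to families with close copies, between which the counting may have divided reads. Ms4a7 reached 10 CPM in 34 of 44 Ighm-high cells and 10 of 24 Ighm-low cells. Gpr183, an oxysterol receptor that guides immune cells in lymphoid tissue, had a log2 fold of 1.25. Igf1, a growth factor made by resident macrophages, ran from 0 through 827.4 to 4091.8 CPM in Ighm-high cells and from 0 through 22.2 to 2280.6 CPM in Ighm-low cells, with a log2 fold of 1.19. The RefSeq span of Igf1 overlaps that of an antisense gene.

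The remaining widely detected genes were Ppp1ca, Nfia, Ptplad2, Eps8, Gltp, Tpp1, Slc9a9, Slc3a2, Ppt1 and Sdhb, with log2 folds from 1.12 for Ppt1 to 1.88 for Ptplad2. Tpp1 and Ppt1 are lysosomal enzymes, Slc9a9 is an endosomal sodium-proton exchanger, and Nfia is a transcription factor of myeloid lineage choice. Other receptors past the rule as higher were less widely detected: P2ry12, an ADP receptor, reached 10 CPM in 23 of 44 Ighm-high cells and 6 of 24 Ighm-low cells. Ifnar1, a chain of the type I interferon receptor, reached it in 18 of 44 Ighm-high cells and 5 of 24 Ighm-low cells. Their log2 folds were 1.67 for P2ry12 and 2.66 for Ifnar1.

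Among the 58 genes lower in Ighm-high cells, Usp8 had the largest difference in share. Usp8, a deubiquitinase of endosomal sorting, ran from 0 through 0 to 188.8 CPM in Ighm-high cells and from 0 through 16.6 to 1110.4 CPM in Ighm-low cells. It reached 10 CPM in 5 of 44 Ighm-high cells (11.4%, 3.79 to 24.6) and 13 of 24 Ighm-low cells (54.2%, 32.8 to 74.4), a log2 fold of -3.14. Myof, a membrane repair protein of the ferlin family, reached 10 CPM in 10 of 44 Ighm-high cells and 14 of 24 Ighm-low cells, with a log2 fold of -2.99. Lgals3, the lectin galectin-3, reached it in 14 of 44 Ighm-high cells and 15 of 24 Ighm-low cells, with a log2 fold of -1.56. Gm5431 had the lowest log2 fold, -3.63, followed by Mgrn1 at -3.59, Trerf1 at -3.42, Ptk2b at -3.28 and Ddx47 at -3.19. Only 2 of the lower genes were at 10 CPM in 34 or more cells, a count that the smaller size of the Ighm-low class also limits. Lmna, which encodes the nuclear lamins A and C, averaged 321.7 ± 577.1 CPM in Ighm-high cells and 856.8 ± 1101 CPM in Ighm-low cells. Dock2, an activator of Rac in leukocytes, averaged 164.1 ± 410.7 CPM in Ighm-high cells and 343.2 ± 520.8 CPM in Ighm-low cells.

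The cells were also compared within 2 strata of detection, divided at the median of 3179 genes above 0, since detection differs widely from cell to cell. Among cells with fewer genes (19 Ighm-high, 15 Ighm-low), 3.01% of genes were higher and 3.22% lower. Among cells with as many or more (25 Ighm-high, 9 Ighm-low), 4.69% were higher and 5.21% lower. These larger shares come with smaller classes. The strata share no cells, and 20 genes were higher in both, which is 7.97% of the list from cells with fewer genes and 5.1% of the list from cells with more. Over all genes, the share called higher in the other stratum was 4.69% and 3.01%, in the same order. Those shares also count genes found in few cells, which could not pass the rule. The overlap of higher genes therefore says little about its members either. The 20 genes include Bank1, Snap23, Snx6, Nfia, Ms4a6b, Gltp, Gpr65, Il16 and Serpinf1. Gpr65 is a proton-sensing receptor of leukocytes, and Il16 encodes a chemoattractant for CD4-bearing cells. In both strata 11 genes were lower, 4.09% of the list from cells with fewer genes and 2.53% of the list from cells with more. These shares lie below the 5.21% and 3.22% of all genes called lower in the other stratum. The overlap of lower genes thus says little about its members, among them Usp8, Cpsf6, Lgals3, Alcam and Stard3. Il16 was at 10 CPM or more in 22 of 44 Ighm-high cells and 5 of 24 Ighm-low cells, with a log2 fold of 2.11. Cpsf6, a factor of mRNA 3′ end processing, reached it in 6 of 44 Ighm-high cells and 11 of 24 Ighm-low cells, with a log2 fold of -2.48.

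Across all 75 cells no gene followed Ighm closely by rank. The highest Spearman rho was 0.49 for Rasa1, a Ras-inactivating protein, and the lowest was -0.45 for Myh9, the heavy chain of non-muscle myosin IIA. Of the 8350 genes, 10 had a rho of 0.4 or more in size and 97 of 0.3 or more. These are descriptions over cells that share 1 source and the same total. Rasa1 reached 10 CPM in 26 of 44 Ighm-high cells and 5 of 24 Ighm-low cells, with a log2 fold of 1.13, but of -0.35 in cells with fewer genes. It was followed by Cdc123 at 0.42, Phb2 at 0.41, Dnajc9 at 0.41 and Ccdc23 at 0.40. Dnajc9 was above 0 in 13 Ighm-high cells and is listed at 0 in all 24 Ighm-low cells.

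Myh9 differs from the others in being at 10 CPM or more in every one of the 68 cells. It ran from 188.3 through 456 to 1246.2 CPM in Ighm-high cells and from 270.5 through 663.95 to 1460 CPM in Ighm-low cells. Its mean was 491.9 ± 234.9 CPM in Ighm-high cells and 753.9 ± 304.3 CPM in Ighm-low cells, a log2 fold of -0.61 that did not reach the rule. The classes overlapped, with the median of the Ighm-high cells below that of the Ighm-low cells. After Myh9 the lowest were Wdr3 at -0.44, Gclm at -0.42, Gm15266 at -0.41 and Ptms at -0.38.

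Of 19 macrophage markers compared, 0 were past the rule, a count near the 1.9% of all genes. Their summed level had a median of 47513 CPM in Ighm-high cells and 50142 CPM in Ighm-low cells. Lyz2, the macrophage lysozyme, had a median of 19559.4 CPM in Ighm-high cells and 24162.5 CPM in Ighm-low cells. C1qb, a chain of complement C1q, averaged 8635 ± 4407 CPM in Ighm-high cells and 8038 ± 5553 CPM in Ighm-low cells.

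Genes of tissue-resident cardiac macrophages leaned towards the Ighm-high cells, and 1 of 20, Igf1, was past the rule, against 1.9% of all genes. Lysosome genes, given below, leaned the same way, so the lean is not particular to this list. Of 20 compared, 17 had a fold above 1, with a median log2 fold of 0.38, where 53.7% of all genes had a fold above 1. Their summed level had a median of 37321 CPM in Ighm-high cells and 19096 CPM in Ighm-low cells. The range was 736.5 to 64265 CPM in Ighm-high cells and 1163 to 59930 CPM in Ighm-low cells, so the classes overlapped almost wholly. Mrc1, the mannose receptor, averaged 3540 ± 2656 CPM in Ighm-high cells and 2278 ± 2068 CPM in Ighm-low cells. Lyve1, a hyaluronan receptor, had a log2 fold of 0.99 and was at 100 CPM or more in 29 of 44 Ighm-high cells (65.9%, 50.1 to 79.5) and 11 of 24 Ighm-low cells (45.8%, 25.6 to 67.2). Folr2, a folate receptor, and Timd4, a receptor for dying cells, had log2 folds of 0.33 and 0.62.

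Among genes of monocyte-derived cells and of antigen presentation, Ccr2 and H2-Aa had similar shares of cells in both classes. Ccr2, the chemokine receptor of recruited monocytes, was at 100 CPM or more in 15 of 44 Ighm-high cells (34.1%) and 7 of 24 Ighm-low cells (29.2%). H2-Aa, an MHC class II chain, was so in 31 of 44 Ighm-high cells (70.5%) and 17 of 24 Ighm-low cells (70.8%). The 9 monocyte-derived genes and the 12 MHC class II genes had 0 past the rule, a count near the 1.9% of all genes. Their median log2 folds were -0.22 and -0.08. Of the monocyte-derived genes 4 had a fold above 1 and 5 below it, and of the MHC class II genes 3 and 9. The summed MHC class II level had a median of 36905 CPM in Ighm-high cells and 46452 CPM in Ighm-low cells. Its range was 463.5 to 179388 CPM in Ighm-high cells and 1272.5 to 133299 CPM in Ighm-low cells. Cd74, the invariant chain, had a log2 fold of -0.07.

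Of the other macrophage lists, lysosome genes had 19 of 24 folds above 1 and a median log2 fold of 0.49, with 0 past the rule against 1.9% of all genes. Tpp1 and Ppt1, named above as higher, are not in this list. Their summed level had a median of 36967 CPM in Ighm-high cells and 29810 CPM in Ighm-low cells. Complement and clearance genes had a median log2 fold of 0.21, iron and haem genes 0.28, inflammatory genes 0.27 and immediate early and heat shock genes 0.12. Interferon response genes had -0.23. None of these lists held a gene past the rule, where 1.9% of all genes were. Fos and Jun, immediate early genes that respond to tissue digestion as well as to signals, had log2 folds of -0.56 and 0.41.

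**Figure D4:**
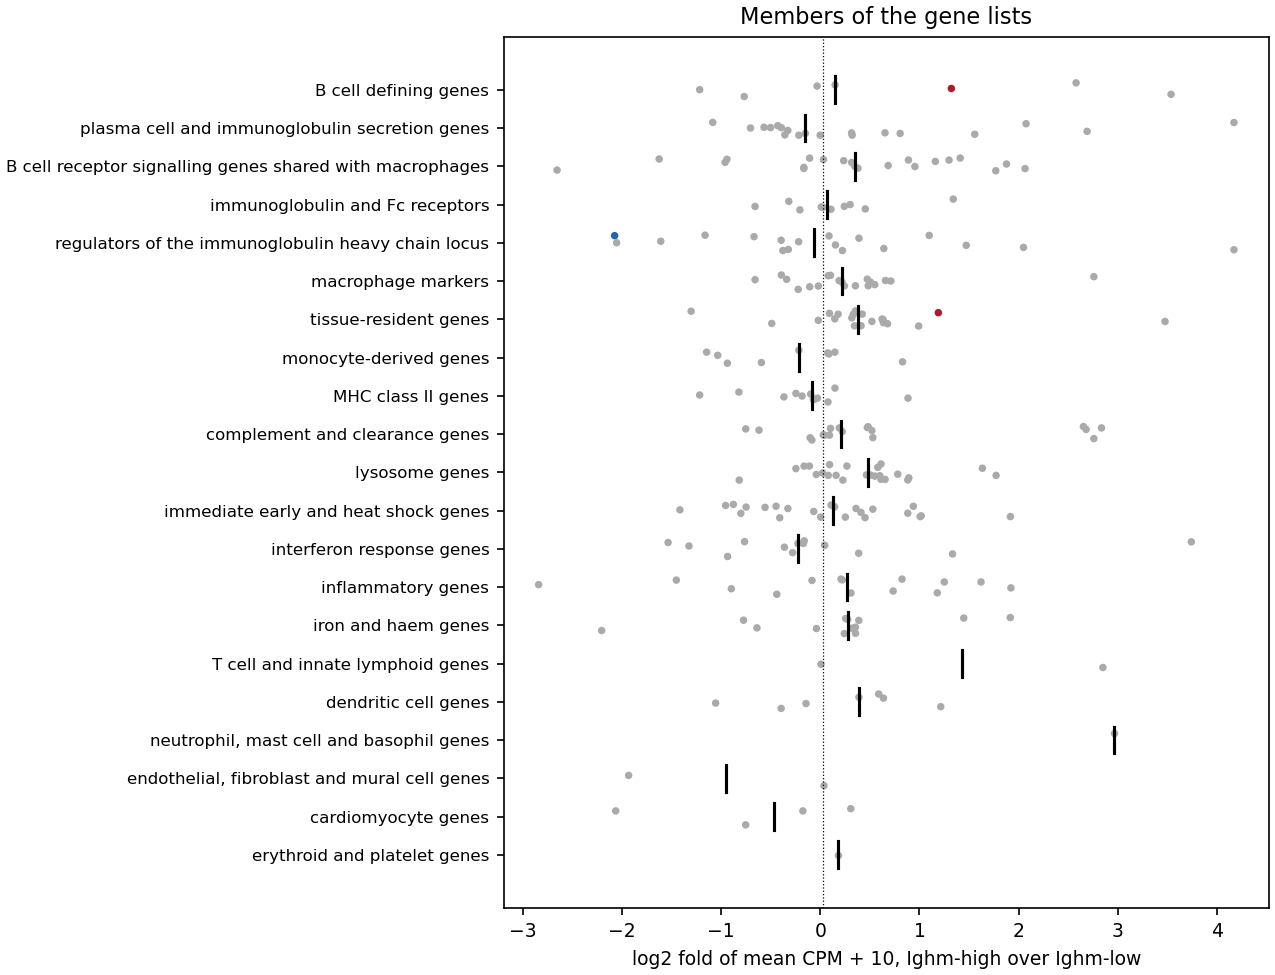
Log2 fold of mean CPM plus 10 (Ighm-high over Ighm-low) for the compared members of each gene list; each point is 1 gene, red where past the rule as higher and blue as lower, the bar in each row is the list's median and the dotted line the median of all genes. Members lie on both sides of 0 in most lists, and the tissue-resident and lysosome lists have medians of 0.38 and 0.49, beside 0.03 over all genes.

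Markers of other cell types were found in both classes, some in most cells. At least 1 dendritic cell gene was at 10 CPM or more in 42 of 44 Ighm-high cells and 24 of 24 Ighm-low cells, and the summed level of the 9 with values had a median of 542.9 CPM in Ighm-high cells and 566.2 CPM in Ighm-low cells. Pf4, the 1 erythroid and platelet gene with values, which cardiac macrophages also express, reached 10 CPM in 41 of 44 Ighm-high cells and 20 of 24 Ighm-low cells, with a log2 fold of 0.18. Single members and other lists were sparser. Siglech, of the dendritic cell list, a lectin of plasmacytoid dendritic cells and microglia, was at 100 CPM or more in 6 of 44 Ighm-high cells and 1 of 24 Ighm-low cells. Csf3r, the receptor for granulocyte colony-stimulating factor, was at 10 CPM or more in 8 of 44 Ighm-high cells and 0 of 24 Ighm-low cells, in which its highest value was 0.5 CPM. It missed the rule on the share. T cell and innate lymphoid genes were at 10 CPM or more in 8 of 44 Ighm-high cells and 4 of 24 Ighm-low cells. Endothelial, fibroblast and mural genes were so in 12 of 44 Ighm-high cells and 8 of 24 Ighm-low cells, and cardiomyocyte genes in 9 of 44 Ighm-high cells and 3 of 24 Ighm-low cells. Most members of these lists were not analysed here. A gene of the Y chromosome was at 10 CPM or more in 30 of 44 Ighm-high cells (68.2%, 52.4 to 81.4) and 13 of 24 Ighm-low cells (54.2%, 32.8 to 74.4). The part of these genes in the differences was not tested.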

How the data were processed

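Per the labels' protocols, cells were caught singly on a microfluidic chip (Fluidigm C1) and made into SMARTer cDNA and Nextera XT libraries, with no molecular identifiers and no strand. The authors deposited CPM with 1 decimal for 9235 genes in 76 libraries, and each library sums to 1000000 up to rounding. Alignment and counting tools named in the submitters' processing notes are HTSeq 0.6.0 and STAR 2.3.0, with mm9 as the build. The reference used here is GRCm38, so no coordinates are given. Of the symbols, 8175 are current in RefSeq, 852 are older names and 208 were not matched.

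Reads per library were estimated from the CPM step of 1 read. Because this step did not return whole reads in every library, no count model was fitted. No test was run, since cells of 1 sample are not replicates. The estimate of reads was tested on simulated data, as was the fold, by known changes put into widely detected genes. The share condition and the number of genes past the rule were not tested in this way. No doublet caller was run and every cell was kept.

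The classes, the 21 gene lists and the rule for genes were chosen with earlier results of these data known. Named were Ighm, Cd79b, Ebf1, every B cell defining gene with values, the 12 largest and 12 smallest folds among genes past the rule, the 5 highest and 5 lowest rho, and in each list the members past the rule and the 2 found in most cells; a selection is printed, and other genes were picked after their values were seen. Alternatives changed the Ighm limits, the pseudocount of 10 CPM, the detection filter of 8 cells, the share threshold, the depth (thinned to 250000 reads), the scale and the cells used. Python 3.11.15, numpy 2.4.6, pandas 2.3.3, scipy 1.17.1 and matplotlib 3.10.9 were used.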

Additional observations from a re-analysis of the deposited data

How the results depend on the processing

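No paired analysis was possible because all cells belong to 1 group with no shared replicate numbers. Of 101 genes higher and 58 lower in Ighm-high cells, 72 and 38 stayed past the rule when every cell was assigned at 10 CPM of Ighm, 81 and 49 after thinning to equal reads, and 101 and 49 without the highest cell of each class. The counts moved over 1.5 times under other settings. With Ighm-high set at 1000 CPM, 191 genes were lower. With a pseudocount of 100 CPM, 35 were higher and 21 lower. With shares counted above 0, 180 were higher, of which 42 are among the 101, and at 100 CPM, 53 were higher, with 32 shared. On the difference of mean log2(CPM + 1), 185 were higher and 117 lower. In cells with fewer genes 251 were higher and 269 lower, and in cells with more genes 392 and 435. Without cells holding a B cell gene at 10 CPM, which leaves 11 Ighm-high and 12 Ighm-low cells, 407 were higher and 450 lower, and 53 and 39 of the genes past the rule in all cells remained. Bank1 then had a log2 fold of 0.02, as the selection removes its high cells. The log2 fold of Rasa1 turned to -0.35 in cells with fewer genes and to -0.37 without cells holding a B cell gene, and that of Id3 to 0.45 in cells with more genes; the cause was not tested. Counted above 0, Ebf1 was found in 22.7% of Ighm-high cells and 33.3% of Ighm-low cells. Il16 as higher, and Cpsf6 and Usp8 as lower, stayed past the rule under 8 of these: both share thresholds, the pseudocount of 100 CPM, thinning, the log2 difference, the highest cells left out, and each stratum of detection. The changed Ighm limits and the removal of cells with a B cell gene are not among these 8. All 8 reuse all or part of the cells that chose the genes, so staying past the rule is no independent support. Differences within the 0 to 10 CPM range were not detectable at the depth of the shallowest cells.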
